A study of Mus musculus with 18 samples.

Results

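The genes described here are the matrix metalloproteinases (symbols beginning with Mmp and a digit), their tissue inhibitors Timp1 to Timp4, and all symbols beginning with Adamts, which takes in the secreted Adamts proteases and the Adamtsl genes. They were chosen by symbol alone. The table of the study holds 51 such genes among 24419 symbols: 23 Mmp, 19 Adamts, 5 Adamtsl and 4 Timp genes. Of these, 43 reached 1 FPKM or more in 1 or more mice and entered the tests, among 13333 such symbols (17 Mmp, 17 Adamts, 5 Adamtsl and 4 Timp). FPKM is the number of sequenced fragments scaled to transcript length and to all mapped fragments, so it can be compared between genes of different length. The 8 genes that stayed below 1 FPKM in every mouse were Mmp1a, Mmp1b, Mmp7, Mmp10, Mmp20, Mmp21, Adamts13 and Adamts18. Mmp1a was listed at 0 in all 18 mice.

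Whole-tissue polyA RNA was sequenced from the heart of 18 C57BL/6 mice aged 8 weeks, 3 mice in each of 6 groups. In the AMI groups the proximal left anterior descending coronary artery was ligated under sodium pentobarbital, and infarcted left ventricle was taken 10 min, 1 h, 6 h, 24 h or 72 h later. The control mice are the group that the study's text calls sham. Ligation without reperfusion is a model of a permanent infarct, and the tissue holds every cell type present in the piece taken, so that fewer cells of a type and less RNA per cell cannot be told apart.

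Matrix metalloproteinases are zinc proteases that are made as inactive precursors and together cleave most proteins of the extracellular matrix. The 4 TIMP proteins bind to the active proteases and block them, and TIMP3 also blocks several ADAM and ADAMTS proteases. ADAMTS proteases are secreted relatives that cleave proteoglycans or trim procollagens, while ADAMTS-like proteins lack the protease part and bind to matrix fibrils. In an infarct these enzymes are known for clearing the injured matrix and for remodelling the scar that replaces it. RNA levels do not give the activity of a protease, which depends on activation of the precursor.

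The labelled tissue was checked first. The 8 cardiomyocyte markers summed to between 65908 and 69889 FPKM in the control mice. Of 6 markers of skeletal muscle and lung, Myh4, Sftpc and Sftpa1 were listed at 0 in every mouse, and Scgb1a1 was at most 0.432 FPKM. The 2 tested ones were called higher at 24 h and 72 h: Tnnt3 had means of 0.439 FPKM in control, 2.72 at 24 h and 12.4 at 72 h, and Acta1, which the heart also expresses, had 176, 340.2 and 240.3. At 72 h all 8 cardiomyocyte markers were called lower, and their sum was between 22387 and 29041. All 8 fibroblast markers were called higher at 72 h (sums of 407 to 473 FPKM in control and 3707 to 4686 at 72 h), as were all 7 myofibroblast markers (135 to 186 and 1414 to 1702). All 9 macrophage and monocyte markers were called higher at 24 h and at 72 h, with sums of 201 to 231 FPKM in control, 534 to 849 at 24 h and 3575 to 4683 at 72 h. All 5 tested neutrophil markers were called higher at 6 h, and Mpo was listed at 0 in every mouse up to 6 h. The neutrophil sums were 2.32 to 4.99 FPKM in control. They were 997, 116 and 375 in mice 1, 2 and 3 of the 6 h group, 209, 42.6 and 965 in those of the 24 h group, and 49.7 to 60.4 at 72 h. Mouse 1 at 6 h and mouse 3 at 24 h therefore stand apart from their groups, and some means below are given with and without them. Without mouse 3 the 24 h mean was 36.3 FPKM in place of 49.2 for Timp1 and 16.0 in place of 22.8 for Mmp14. That of Mmp19 was 9.12 in place of 13.6. Without mouse 1 the 6 h mean was 77.6 in place of 108.7 for Adamts1 and 21.7 in place of 29.7 for Adamts9. Some other means rose, such as that of Mmp15 at 24 h (33.8 in place of 29.7). Mouse 1 at 6 h and mouse 3 at 24 h also had the highest macrophage and monocyte sums of their groups (358 and 849 FPKM). Their cardiomyocyte sums were the lowest (55105 and 40805). Values without such a mouse therefore do not single out a cell type, and the part of these cell types in the results that follow was not tested.

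To see when the genes departed from the control level, each time point was compared with the control mice on log2(FPKM + 1) with limma, and a gene was called at a Benjamini-Hochberg adjusted p under 0.05 over all tested symbols. Few members were called in the first hour. At 10 min 1 of 43 members, Adamts4, was called higher, beside 0.248% of all tested symbols. None was called lower, beside 0.0978% of all symbols, although 11 members were higher and 6 lower at an unadjusted p under 0.05, beside 8.70% and 6.00% of all symbols. Out of 43 members these are larger shares than those of all symbols, in both directions. At 1 h 1 member, Adamts1, was called higher, beside 0.669% of all symbols. None was called lower, beside 0.0526%, and at an unadjusted p under 0.05 there were 4 higher and 0 lower members, beside 5.52% and 7.06% of all symbols.

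From 6 h on members were called in both directions. The share called lower was near that of all symbols at 6 h and below it at 72 h. At 6 h 12 members were called higher, beside 11.6% of all symbols, and 8 lower, beside 16.8%. At 24 h 17 were called higher, beside 26.2%, and 8 lower, beside 11.4%. At 72 h 33 were called higher and 6 lower, beside 53.1% and 24.2% of all symbols. As shares of the 43 members these are 27.9% and 18.6% for the 6 h group, 39.5% and 18.6% for the 24 h group, and 76.7% and 13.95% for the 72 h group. The median log2 difference of the members was 0.07 at 6 h, 0.08 at 24 h and 0.87 at 72 h, beside −0.08, 0.13 and 0.29 over all tested symbols. The 72 h group had the highest mean for 29 of the 43 members, beside 49.9% of all symbols, and the 6 h group for 6, beside 6.86%. Mmp13, Mmp16, Mmp27, Adamts16, Adamts17, Adamts19 and Adamts20 reached 1 FPKM only in 72 h mice, so they entered the tests through that group. The filter thus favoured their 72 h calls, against control and against 24 h, and their 72 h peaks. Mmp24 and Mmp25 entered through the 24 h group in the same way. The same filter was applied to all symbols.

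The scale matters for the counts at 72 h. When the mice were rescaled by the median of ratios, the median of all symbols at 72 h moved from 0.29 to 0.04, and 29 members were called higher and 7 lower. Under quantile normalization that median was −0.12, and 22 members were higher and 8 lower. Over all symbols, the calls at 72 h were 7081 higher and 3226 lower on the deposited scale, 5243 and 4752 after median-of-ratios scaling, and 4278 and 5794 after quantile normalization. At 24 h the split went from 3496 higher and 1516 lower to 2538 and 2317, and to 2118 and 2736. At 6 h it went from 1543 and 2233 to 1976 and 1515 with the first, and to 1650 and 2147 with the second.

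**Figure D1:**
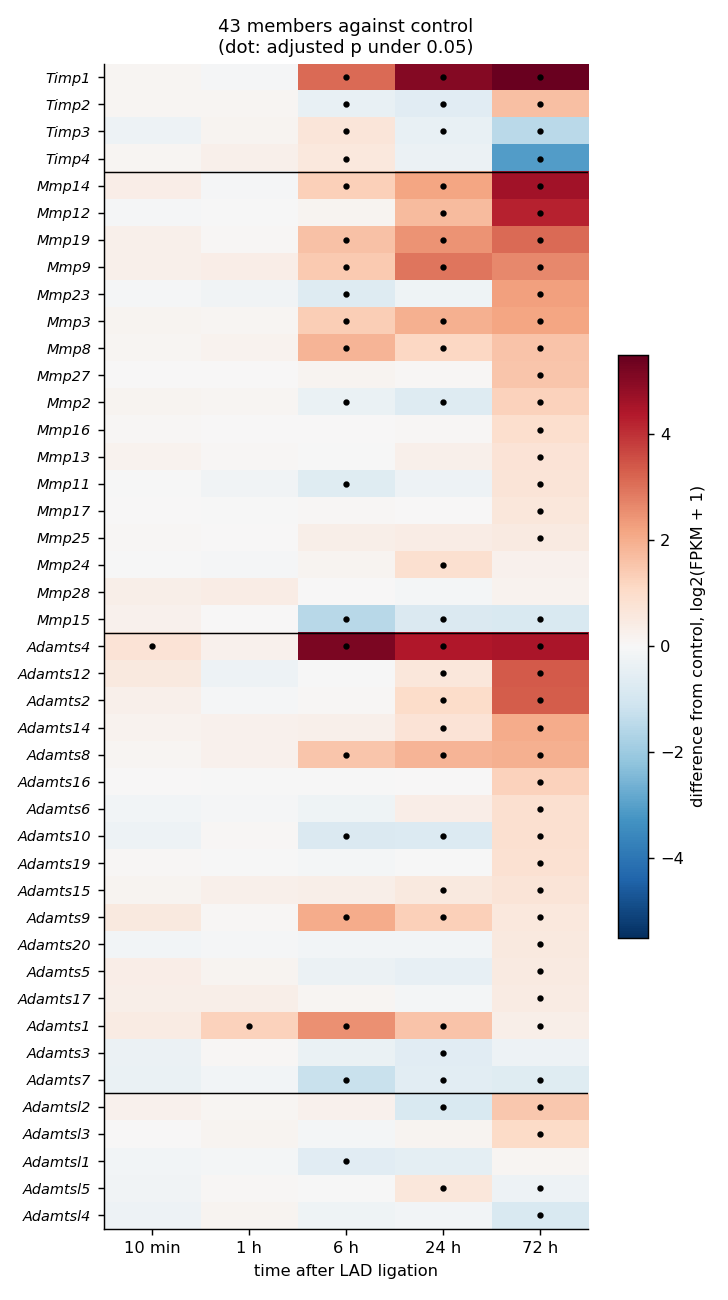
Difference from control on the log2(FPKM + 1) scale (colour) for the 43 tested members (rows, grouped as Timp, Mmp, Adamts and Adamtsl and ordered by the 72 h value) at the 5 times after ligation (columns), with a dot where the adjusted p was under 0.05. The first 2 columns hold 1 dot each, Adamts4 at 10 min and Adamts1 at 1 h, and the 72 h column holds 39.

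The inhibitors split into 2 pairs by 72 h. Timp1 and Timp2 were higher than control, and Timp3 and Timp4 were lower. Timp1, on chromosome X (mm10, 20870166 to 20874735, plus strand), lies inside Syn1 on the opposite strand and shares no exon base with it. Timp1 is the inhibitor best known for being induced by injury and inflammation. Its FPKM in mice 1, 2 and 3 was 0.483, 0.360 and 0.450 in control, 0.570, 0.473 and 0.524 after 10 min, and 0.381, 0.327 and 0.426 after 1 h. It was then 14.5, 9.81 and 10.2 after 6 h, 33.1, 39.5 and 74.9 after 24 h, and 54.4, 80.3 and 50.3 after 72 h. The 10 min and 1 h mice each overlap the control mice but not each other, and every mouse from 6 h on lies above all of them. The log2 difference from control was 3.11 ± 0.15 (SE, n = 3 against 3, limma adjusted p = 0.000106) at 6 h, 5.04 ± 0.28 (adjusted p = 0.000441) at 24 h and 5.42 ± 0.16 (adjusted p = 2.74e-08) at 72 h, where the mean was 143-fold that of control. On the log2(FPKM + 1) scale Timp1 had the largest rise of all members at 24 h and at 72 h.

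Timp2, the inhibitor that also takes part in the activation of pro-MMP2 by MMP14, moved down before it moved up. Its FPKM was 73.5, 71.5 and 77.4 in the control mice, 61.3, 48.6 and 57.8 after 6 h, 52.6, 55.9 and 37.2 after 24 h, and 242, 214 and 263 after 72 h. The 10 min mice had 73.1, 82.1 and 85.6 and the 1 h mice 75.5, 82.5 and 79.96, with no call. The 6 h and 24 h mice all lie below the control mice, and the 72 h mice all lie above them. The difference was −0.41 ± 0.10 (adjusted p = 0.0221) at 6 h and −0.62 ± 0.15 (adjusted p = 0.0213) at 24 h by limma. Both calls were lost when any 1 control mouse was left out, with adjusted p up to 0.0877 and 0.0746, both without control mouse 3. At 72 h the difference was 1.68 ± 0.09 (adjusted p = 4.4e-07).

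Timp3, the matrix-bound inhibitor, was the most abundant of the 4 genes in control heart. It lies inside Syn3 on the opposite strand (mm10, chromosome 10, 86300372 to 86349506), and 1733 bases of its annotated exons, 21.3%, are also exonic in Syn3. The library kit is not stated to keep strand, so reads from this stretch cannot be assigned to 1 of the 2 genes with certainty. Its FPKM was 277, 330 and 303 in control, 531, 457 and 468 after 6 h, 250, 230 and 203 after 24 h, and 111, 118 and 94.8 after 72 h. The 3 mice at 6 h are all higher than any control mouse, and those at 24 h and at 72 h are all lower. Timp3 rose by 0.68 ± 0.09 (limma adjusted p = 0.00333) at 6 h and was lower by 1.48 ± 0.10 at 72 h (a difference of −1.48, adjusted p = 2.26e-06). The difference at 24 h was −0.41 ± 0.11 (adjusted p = 0.0274). That call was lost without any 1 control mouse and without mouse 2 at 24 h, with an adjusted p of up to 0.107 without control mouse 2. At 10 min the mice had 259, 245 and 244, and at 1 h 383, 394 and 259, and neither group passed the test.

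Timp4, the inhibitor known for its high level in heart, followed Timp3 in time but with a deeper fall. Its gene lies inside Syn2 on the opposite strand (mm10, chromosome 6, 115241892 to 115252205) and shares 90 exon bases with it, 1.5% of its own. The control mice had 28.8, 36.8 and 37.9 FPKM and the 6 h mice 44.0, 62.6 and 49.6. The 24 h mice had 33.8, 24.3 and 25.5, which overlap the control mice, and the 72 h mice had 4.17, 2.38 and 3.28. At 10 min it was 42.9, 36.2 and 31.3 and at 1 h 48.1, 60.2 and 24.9, with no call. The difference at 72 h was −3.07 ± 0.16 (limma adjusted p = 5.18e-07), a 10.5-fold lower mean. The rise at 6 h was 0.58 ± 0.15 (adjusted p = 0.0312), and it was lost without any 1 control mouse and without mouse 2 or 3 at 6 h, with an adjusted p of up to 0.101 without control mouse 1. It was also lost without the filter on low values and in one fit of all 18 mice. The cardiomyocyte marker sum fell over the same interval, from 65908 or more FPKM in control to 29041 or less at 72 h.

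**Figure D2:**
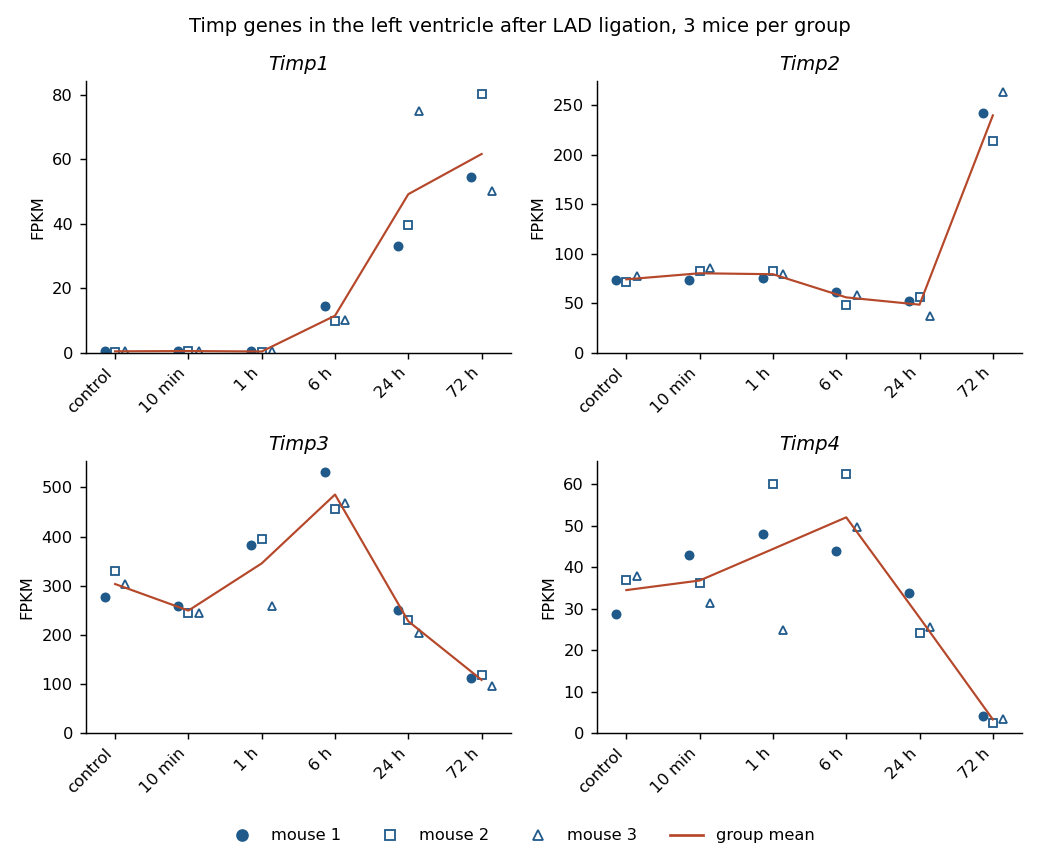
FPKM of the 4 Timp genes (y axis, linear, from 0) in the control group and at the 5 times after ligation (x axis), with 1 symbol per mouse and a line through the group means of 3 mice. Timp1 and Timp2 have their highest means at 72 h (61.6 and 240 FPKM), and Timp3 and Timp4 have theirs at 6 h (486 and 52.1 FPKM).

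On the deposited scale the sum of the 4 inhibitors had nearly the same mean at the start and the end. It was 412 ± 30.2 FPKM (SD, n = 3) in control and 413 ± 1.49 at 72 h, with single mice between 380 and 439 in control and between 412 and 414 at 72 h. The sums of these groups gave p = 1 in an exact permutation test (two-sided), which with 3 against 3 mice cannot go below 0.1. This depends on the scale: after median-of-ratios scaling the sum was 399.6, 462.6 and 427.1 in control and 354.9, 342.1 and 342.9 at 72 h, with no overlap (exact permutation p = 0.1). Within the sum, whose shares no scaling factor changes, Timp3 made up 73.5% ± 1.53 in control and 26.2% ± 2.80 at 72 h. Timp2 went from 18.0% ± 1.58 to 58.1% ± 6.19, Timp1 from 0.106% ± 0.0227 to 14.9% ± 3.88, and Timp4 from 8.34% ± 0.745 to 0.794% ± 0.219. The mice of the 2 groups do not overlap in any of these 4 shares.

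The sum of all 23 Mmp genes moved on another course. It was 106 ± 4.60 FPKM in control, 84.5 ± 10.3 at 6 h, 127 ± 31.2 at 24 h and 327 ± 24.3 at 72 h. At 24 h mice 1, 2 and 3 had Mmp sums of 111.5, 106.8 and 163.1. After median-of-ratios scaling the means were 110.7, 94.6, 119.3 and 274.5. Divided mouse by mouse, a measure that a common scaling factor per mouse does not change, the Timp sum was 3.63, 4.27 and 3.75 times the Mmp sum in the control mice. The ratio was 6.80, 7.64 and 7.15 after 6 h, 3.31, 3.27 and 2.09 after 24 h, and 1.36, 1.183 and 1.25 after 72 h. All 6 h mice therefore lie above the control mice, and all 24 h and 72 h mice lie below them. For each of these 3 times the exact permutation p was 0.1, the smallest that 3 against 3 mice can give. At 10 min the ratio was 3.17, 2.94 and 2.84 (exact permutation p = 0.1), and at 1 h it was 4.62, 4.76 and 3.30 (exact permutation p = 0.5).

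**Figure D3:**
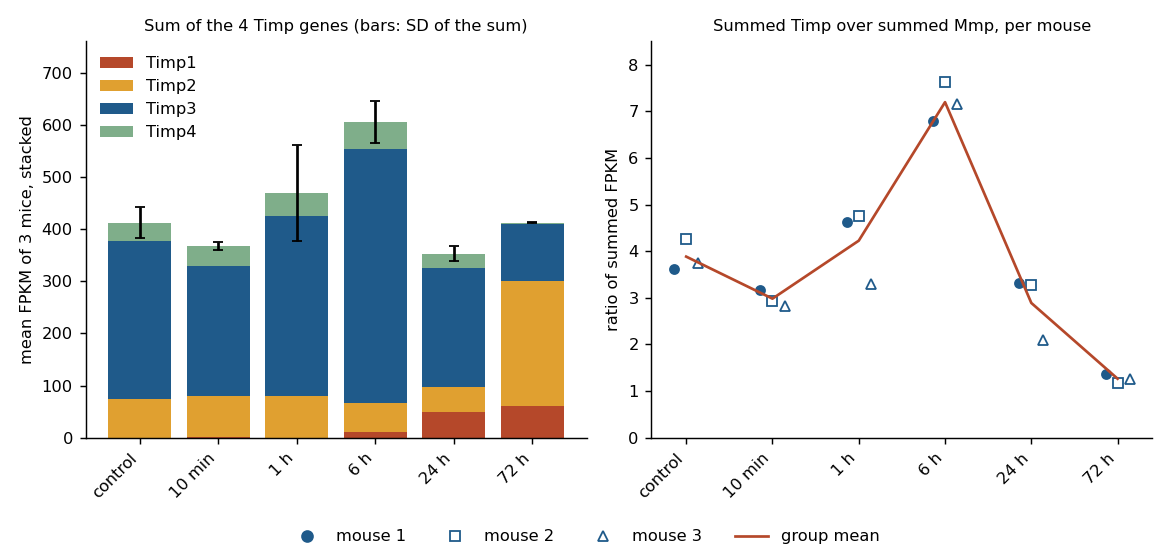
Left, mean FPKM of Timp1 to Timp4 stacked for each group of 3 mice, with the SD of the summed value as error bars. Right, the summed FPKM of the Timp genes divided by that of the 23 Mmp genes, with 1 symbol per mouse and a line through the group means. The stacks at control and 72 h reach nearly the same height on the deposited scale (412 and 413 FPKM, against 429.8 and 346.6 after median-of-ratios scaling) with different composition, and the ratio peaks at 6 h (mean of 7.20) and is lowest at 72 h (mean of 1.27).

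Among the Mmp genes, 2 membrane-type proteases exchanged their places in the sum. Mmp14 encodes the membrane-type protease that cleaves fibrillar collagen at the cell surface and activates pro-MMP2. Its gene is on chromosome 14 (mm10, 54431612 to 54445364). Its FPKM was 3.80, 4.09 and 4.06 in control, 4.80, 4.996 and 6.46 after 10 min, and 3.15, 3.50 and 4.71 after 1 h. It then reached 14.5, 11.0 and 9.50 after 6 h, 14.9, 17.2 and 36.3 after 24 h, and 102, 137 and 129 after 72 h. From 6 h on all mice lie above the control mice. The log2 difference was 1.33 ± 0.15 (limma adjusted p = 0.00169) at 6 h, 2.15 ± 0.30 (adjusted p = 0.00507) at 24 h and 4.62 ± 0.11 (adjusted p = 1.38e-08) at 72 h, the largest of the Mmp genes on this scale.

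Mmp15, a second membrane-type protease, went down from 6 h on. Its FPKM was 50.5, 50.5 and 53.4 in control, and it was the most abundant Mmp gene there. It was 61.2, 62.9 and 57.1 at 10 min, all above the control mice but without a call (limma adjusted p = 0.147), and 48.1, 54.1 and 53.01 at 1 h. It was 16.8, 15.0 and 20.8 after 6 h, 32.0, 35.7 and 21.5 after 24 h and 31.4, 28.9 and 25.5 after 72 h, with all 9 of these mice below the control mice. The difference at 6 h was −1.51 ± 0.12 (limma adjusted p = 0.000475) and at 72 h −0.83 ± 0.08 (adjusted p = 2.31e-05). At 24 h it was −0.80 ± 0.18 (adjusted p = 0.0157), a call that was lost without any 1 control mouse, with an adjusted p of up to 0.0594 without control mouse 1. As a share of the Mmp sum, Mmp15 went from 48.4% ± 0.637 in control to 8.80% ± 1.41 at 72 h, and Mmp14 from 3.75% ± 0.197 to 37.4% ± 3.12. The other genes of this kind stayed low: at 72 h Mmp16 had a mean of 1.16 FPKM (a rise of 0.91 ± 0.10), Mmp17 5.70 (0.64 ± 0.12) and Mmp25 0.547 (0.49 ± 0.09), all called higher on the deposited scale, while the calls of Mmp17 and Mmp25 were lost after quantile normalization, where Mmp25 had a difference of −0.02. Mmp24 was called only at 24 h, with a mean of 0.996 FPKM against 0.0922 in control (0.86 ± 0.13, limma adjusted p = 0.00622). An opposite-strand gene, BC029722, covers 13.6% of its exon bases.

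The gelatinases, which cleave denatured collagen and basement membrane collagen, differed in timing. Mmp2, the constitutive one, had 32.4, 30.001 and 34.2 FPKM in control, 31.4, 35.3 and 40.3 after 10 min, 34.4, 34.8 and 33.7 after 1 h, 27.1, 23.9 and 22.5 after 6 h, 19.5, 18.5 and 19.9 after 24 h, and 80.2, 74.4 and 80.4 after 72 h. It was thus below every control mouse at 6 h and 24 h and above them at 72 h. The difference was −0.71 ± 0.08 (limma adjusted p = 0.00328) at 24 h and 1.26 ± 0.07 (adjusted p = 7.47e-07) at 72 h. The value at 6 h, −0.38 ± 0.09 (adjusted p = 0.0245), lost its call without any 1 control mouse (adjusted p up to 0.0998, without control mouse 3) and after median-of-ratios scaling. Mmp9, the inducible gelatinase that neutrophils store in granules, had 0.191, 0.293 and 0.244 FPKM in control. It had 0.695, 0.407 and 0.433 after 10 min, 0.598, 0.516 and 0.651 after 1 h, 4.12, 1.12 and 2.46 after 6 h, 6.44, 2.64 and 31.1 after 24 h, and 5.28, 8.71 and 6.84 after 72 h. Every mouse after ligation lies above the control mice, but the 10 min and 1 h groups did not pass the test (limma adjusted p = 0.228 and 0.0939). The difference was 1.43 ± 0.28 (adjusted p = 0.0113) at 6 h and 2.65 ± 0.15 (adjusted p = 7.34e-07) at 72 h.

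At 24 h the mean of Mmp9 rests on mouse 3, the mouse with a neutrophil marker sum of 965 FPKM. That mouse also had the highest macrophage and monocyte sum of its group, 849 FPKM, and the lowest cardiomyocyte sum. The mean was 13.4 FPKM with it and 4.54 without it. The difference of 2.94 ± 0.70 (limma adjusted p = 0.0195) was lost without any 1 control mouse, with an adjusted p of up to 0.0694 without control mouse 1, and it was kept without mouse 3. Mmp8, the collagenase of neutrophil granules, was listed at 0 in control mice 1 and 3 and at 0.0139 in mouse 2. It had 0.220, 0.0223 and 0.0235 FPKM at 10 min, 0.273, 0.0775 and 0.0691 after 1 h, 5.44, 1.40 and 2.15 after 6 h, 1.08, 0.292 and 3.16 after 24 h, and 1.95, 2.25 and 1.80 after 72 h. The order of the mice at 6 h and at 24 h is that of the neutrophil sums. At 6 h it is also that of the macrophage and monocyte sums (358, 174 and 266 FPKM). At 72 h the neutrophil sums were 49.7, 59.2 and 60.4, so the order of the mice differs from that of Mmp8. The mean of Mmp8 at 72 h, 1.998, was above that at 24 h. Without mouse 1 the mean at 6 h was 1.78 in place of 2.998, and without mouse 3 the mean at 24 h was 0.687 in place of 1.51. The difference passed the limma test at 6 h (1.86 ± 0.32, adjusted p = 0.00715) and 72 h (1.57 ± 0.09, adjusted p = 8.62e-07). The call at 24 h (1.15 ± 0.38, adjusted p = 0.0497) was lost without any 1 control mouse and without mouse 1 at 24 h, with an adjusted p of up to 0.125 without control mouse 1, and after both rescalings.

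Mmp3 and Mmp19 were called higher from 6 h on, and Mmp12 from 24 h on. Mmp3 is stromelysin-1, which cleaves proteoglycans and activates other Mmp precursors. Its FPKM was 1.33, 1.02 and 1.56 in control, 1.60, 1.59 and 1.40 after 10 min, 1.87, 1.14 and 1.49 after 1 h, 6.09, 4.35 and 4.11 after 6 h, 7.54, 7.01 and 9.65 after 24 h, and 8.76, 13.4 and 6.79 after 72 h. The late mice lie above all early ones, with differences of 1.34 ± 0.15, 1.97 ± 0.15 and 2.17 ± 0.20 at 6 h, 24 h and 72 h (limma adjusted p = 0.00184, 0.00113 and 1.62e-05). Mmp12, the macrophage elastase, came later. It had 0.0966, 0.198 and 0.153 FPKM in control, 0.208, 0.0396 and 0.0563 after 10 min, 0.201, 0.0829 and 0.139 after 1 h, and 0.259, 0.0641 and 0.522 after 6 h, which overlaps control. It then had 2.40, 2.15 and 4.20 after 24 h (1.73 ± 0.19, adjusted p = 0.00276) and 19.0, 23.3 and 19.4 after 72 h (4.23 ± 0.10, adjusted p = 1.36e-08). At 6 h, when Mmp12 was still low, the macrophage and monocyte marker sum was 174 to 358 FPKM. This range overlaps that of the control mice, 201 to 231.

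Mmp19 had 1.24, 1.13 and 1.88 FPKM in control, 2.26, 1.59 and 1.77 after 10 min, 1.83, 1.54 and 1.21 after 1 h, 8.10, 4.59 and 6.47 after 6 h, 10.3, 7.93 and 22.6 after 24 h, and 18.1, 23.0 and 18.6 after 72 h. It passed the limma test at the 3 late times, by 1.60 ± 0.20, 2.48 ± 0.34 and 3.12 ± 0.14 (adjusted p = 0.00239, 0.00507 and 1.81e-07). An opposite-strand gene, Tmem198b, covers 22.3% of its annotated exon bases, and reads there cannot be told apart.

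Mmp23 and Mmp27 were called higher at 72 h and at no earlier time. Mmp23 had 2.58, 2.06 and 2.32 FPKM in control, 1.99, 2.20 and 2.29 after 10 min, 1.52, 2.26 and 2.098 after 1 h, 1.10, 0.981 and 0.996 after 6 h, 1.63, 2.64 and 1.29 after 24 h, and 14.2, 13.5 and 16.8 after 72 h. It was thus lower than control at 6 h in every mouse (−0.71 ± 0.10, limma adjusted p = 0.00308) and higher at 72 h in every mouse (2.25 ± 0.10, adjusted p = 2.2e-07). Mmp27 was 0, 0.107 and 0.0302 in control, 0, 0 and 0.163 after 10 min, 0.133, 0.0565 and 0.0400 after 1 h, 0.240, 0.0670 and 0.128 after 6 h, and 0.0993, 0 and 0.161 after 24 h. At 72 h it was 1.93, 2.05 and 1.96, a difference of 1.51 ± 0.09 (adjusted p = 7.76e-07). Mmp11, or stromelysin-3, shared the dip and rise of Mmp23, with group means of 2.96 FPKM in control, 1.49 at 6 h (−0.68 ± 0.15) and 5.43 at 72 h (0.69 ± 0.13). Its call at 6 h was lost without control mouse 1 (limma adjusted p = 0.0652) or control mouse 2, and its call at 72 h after quantile normalization. Mmp13, the main collagenase of rodents, had a mean of 0.961 FPKM at 72 h against 0.153 in control (0.77 ± 0.10), and that call was lost after quantile normalization. Mmp28 was between 4.38 and 11.7 FPKM in all mice and was called at no time.

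**Figure D4:**
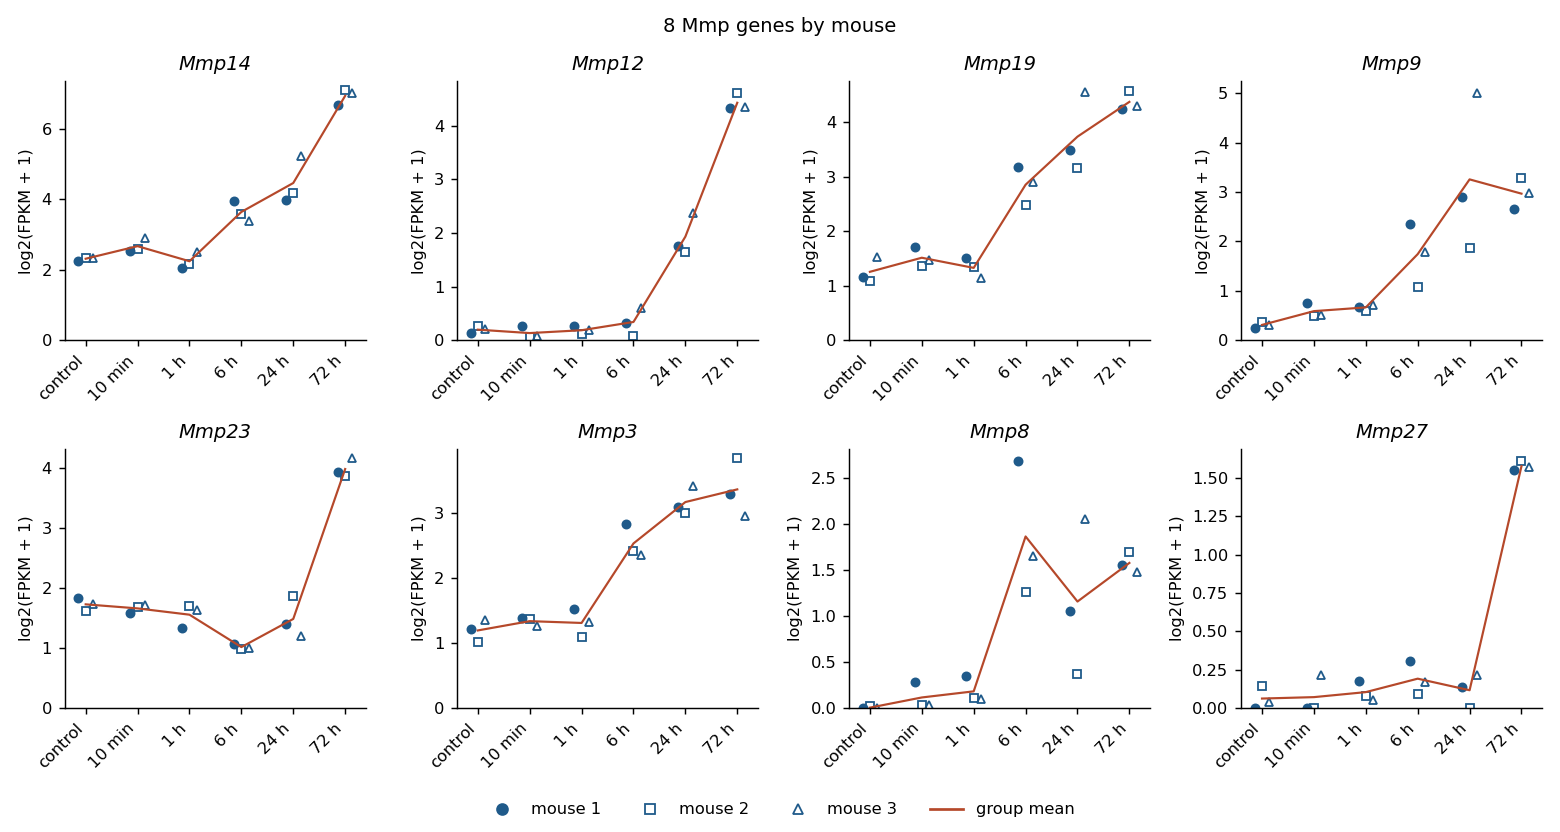
log2(FPKM + 1) (y axis, each panel with its own range from 0) of the 8 Mmp genes with the largest called difference from control, by group (x axis), with 1 symbol per mouse and a line through the group means of 3 mice. Mmp3, Mmp9, Mmp14, Mmp19 and Mmp8 are called higher from 6 h, Mmp12 from 24 h and Mmp27 at 72 h. Mmp23 lies below control at 6 h and above it at 72 h. Mouse 3 at 24 h is high for Mmp9, Mmp14 and Mmp19.

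Of the 23 Mmp genes, 10 lie side by side on chromosome 9 (mm10, 7272514 to 7699585), in the order Mmp13, Mmp12, Mmp1b, Mmp3, Mmp1a, Mmp10, Mmp8, Mmp27, Mmp20 and Mmp7. Only 5 of the 10 reached 1 FPKM in any mouse. These neighbours did not share 1 time course: Mmp3 and Mmp8 were called higher from 6 h, Mmp12 from 24 h, and Mmp13 and Mmp27 at 72 h. The stretches just upstream of the starts of these 5 genes are shown because they are neighbours with different time courses. A promoter window from 250 bases before to 50 bases after the start was found in the RefSeq table (GRCm38.p6) for 36 of the 51 members. The letters TGANTCA, where N is any base, were searched in these windows and read the same on both strands. The core of AP-1 sites has G or C in the middle, so the pattern searched is wider than that core. A match was found in 8 of the 36 genes, all 8 in the chromosome 9 group, where Mmp8 and Mmp27 are the 2 without a match. The match of Mmp20 is TGAATCA, with A in the middle. Of all 27025 genes with a window, 8.97% have a match, with any middle base. The letters TGACGTCA (for CREB-type factors, the same on both strands) were found in no member window, against 2.03% of all genes, and neither was an NF-kB motif, which 1.895% of all genes hold. The motifs were chosen with the expression values known, a match is a description of the letters and not a bound site, and no match says nothing of the factor. In the 5 sequences, 120 bases that end 1 base before the RefSeq start (mm10, plus strand), capitals mark TGANTCA. Mmp12 has a second annotated start further upstream, whose window holds no match.
Mmp13, chr9:7272394-7272513: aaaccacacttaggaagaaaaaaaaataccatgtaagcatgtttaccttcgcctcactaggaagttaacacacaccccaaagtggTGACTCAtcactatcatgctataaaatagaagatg
Mmp12, chr9:7347254-7347373: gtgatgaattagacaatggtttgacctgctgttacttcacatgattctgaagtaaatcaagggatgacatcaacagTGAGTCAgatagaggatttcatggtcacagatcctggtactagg
Mmp3, chr9:7445702-7445821: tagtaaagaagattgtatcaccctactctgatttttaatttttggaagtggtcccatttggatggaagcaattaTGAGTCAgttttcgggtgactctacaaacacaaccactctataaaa
Mmp8, chr9:7558309-7558428: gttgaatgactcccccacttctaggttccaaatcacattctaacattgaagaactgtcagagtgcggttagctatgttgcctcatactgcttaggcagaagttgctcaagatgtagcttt
Mmp27, chr9:7571276-7571395: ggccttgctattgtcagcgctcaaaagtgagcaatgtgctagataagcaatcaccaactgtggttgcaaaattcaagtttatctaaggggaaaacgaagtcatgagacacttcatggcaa

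The match begins 35 bases before the start in Mmp13, 44 in Mmp12 and 46 in Mmp3. Mmp3 and Mmp12, which both hold it, were called higher from 6 h and from 24 h, and Mmp8, which does not, was called higher from 6 h. Mmp13, which holds it, and Mmp27, which does not, were both called higher at 72 h. Whether the match has a part in the time of the rise was not tested. Mmp1a, Mmp1b, Mmp7, Mmp10 and Mmp20 also hold a match and were at or below 0.0536 FPKM in all mice.

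Adamts1 was the only member called higher at 1 h, and it was called at every later time. Adamts1 encodes a protease that cleaves aggrecan and versican, and it is on chromosome 16 (mm10, 85793827 to 85803113, minus strand). Its FPKM was 16.8, 14.7 and 18.8 in control, 25.9, 20.0 and 23.5 after 10 min, and 40.4, 39.0 and 45.4 after 1 h. It was highest at 6 h, with 171, 88.9 and 66.3, and was 40.4, 47.6 and 73.9 after 24 h and 20.0, 24.8 and 19.2 after 72 h. All mice after ligation lie above the control mice. The difference was 0.44 ± 0.11 at 10 min (limma adjusted p = 0.166), 1.26 ± 0.10 at 1 h (adjusted p = 0.000663), 2.52 ± 0.31 at 6 h (adjusted p = 0.00228) and 1.59 ± 0.22 at 24 h (adjusted p = 0.00492). The call at 1 h was kept without each mouse in turn. At 72 h the difference was 0.33 ± 0.12 (adjusted p = 0.0297) on the deposited scale and −0.0075 after quantile normalization. That call was also lost after median-of-ratios scaling, without the filter on low values, in one fit of all 18 mice, and without control mouse 1 or 2 or mouse 2 at 72 h, with an adjusted p of up to 0.107 without control mouse 2.

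Adamts4, another protease that cleaves aggrecan and versican, had the largest difference of all members at 6 h on the log2(FPKM + 1) scale, and it was the only member called at 10 min. It is on chromosome 1 (mm10, 171250421 to 171260637). Its FPKM was 0.212, 0.0591 and 0.212 in control, 1.13, 0.718 and 0.958 after 10 min, and 0.511, 0.181 and 0.395 after 1 h. It was 85.8, 24.0 and 33.9 after 6 h, 20.1, 7.94 and 78.5 after 24 h, and 20.1, 35.9 and 21.5 after 72 h. The late mice all lie far above the early ones, but they spread widely at 6 h and 24 h. The difference was 5.19 ± 0.41 at 6 h (limma adjusted p = 0.000475), 4.41 ± 0.70 at 24 h (adjusted p = 0.00659) and 4.49 ± 0.20 at 72 h (adjusted p = 1.8e-07). Without mouse 1 at 6 h the mean there was 29.0 FPKM in place of 47.9, and without mouse 3 at 24 h it was 14.02 in place of 35.5. These mice have the highest neutrophil marker sums of their groups, and also the highest macrophage and monocyte sums and the lowest cardiomyocyte sums. The rise of 0.74 ± 0.10 at 10 min (adjusted p = 0.0403) was lost without any 1 control mouse and without mouse 1 or 3 at 10 min, with an adjusted p of up to 0.15 without control mouse 1, and also with a pseudocount of 0.1, without the filter on low values and in one fit of all 18 mice.

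Adamts9, a further protease of this kind, had 6.20, 4.74 and 7.64 FPKM in control, 9.58, 8.28 and 10.3 after 10 min, 7.24, 6.06 and 6.33 after 1 h, 45.9, 20.6 and 22.8 after 6 h, 13.1, 12.4 and 27.5 after 24 h, and 8.48, 12.2 and 8.81 after 72 h. It was highest at 6 h, in all 3 mice above control (2.02 ± 0.30, limma adjusted p = 0.00399). The call at 24 h (1.31 ± 0.30, adjusted p = 0.0183) was lost without control mouse 1 or 2 (up to an adjusted p of 0.0696, without control mouse 2). That at 72 h (0.59 ± 0.17, adjusted p = 0.0117) was lost after median-of-ratios scaling, after quantile normalization and in one fit of all 18 mice. Adamts8 stayed up once it had risen. It had 0.773, 0.744 and 1.11 FPKM in control, 1.179, 0.945 and 0.907 after 10 min, 0.978, 1.17 and 1.39 after 1 h, 5.38, 4.05 and 3.69 after 6 h, 4.56, 10.2 and 3.91 after 24 h, and 7.81, 6.81 and 4.72 after 72 h. Its difference was 1.51 ± 0.14, 1.85 ± 0.30 and 1.97 ± 0.16 at the 3 late times (limma adjusted p = 0.000952, 0.0069 and 6.64e-06). Antisense gene Gm29724 shares 10.6% of its exon bases.

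Adamts5 and Adamts15, which also cleave proteoglycans, changed little beside these. Adamts5 had group means of 24.1 FPKM in control, 17.7 at 24 h (−0.44 ± 0.14, limma adjusted p = 0.051) and 33.9 at 72 h (0.48 ± 0.08, adjusted p = 0.000856). Adamts15 had 4.36 in control, 6.73 at 24 h and 7.71 at 72 h (0.70 ± 0.10, adjusted p = 0.000167). The 72 h call of Adamts5 was lost after median-of-ratios scaling and after quantile normalization, and that of Adamts15 after the latter. The 24 h call of Adamts15 (0.52 ± 0.13) was lost without any 1 control mouse, with an adjusted p of up to 0.0857 without control mouse 1. It was also lost after quantile normalization (limma adjusted p = 0.103).

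The procollagen N-proteinases Adamts2, Adamts3 and Adamts14 remove the amino-terminal propeptide of fibrillar procollagens. Adamts2 had 22.9, 20.1 and 24.7 FPKM in control, 29.7, 25.5 and 28.9 after 10 min, 20.5, 20.8 and 22.8 after 1 h, 23.6, 21.6 and 25.9 after 6 h, 39.0, 50.9 and 48.1 after 24 h, and 220, 259 and 238 after 72 h. It stood at the control level at 6 h (0.07 ± 0.11, limma adjusted p = 0.644) and above it in all mice at 24 h (0.99 ± 0.13, adjusted p = 0.00413) and 72 h (3.35 ± 0.09, adjusted p = 2.23e-08). At 72 h it made up 52.9% ± 1.23 of the summed FPKM of the 19 Adamts genes (Adamtsl not included), against 17.3% ± 0.471 in control. Adamts1 made up 39.1% ± 6.99 of that sum at 6 h and 4.70% ± 0.291 at 72 h. The sum itself was 131 ± 13.3 FPKM in control, 270 ± 95.3 at 6 h, 225 ± 57.7 at 24 h and 453 ± 42.96 at 72 h. Mice 1, 2 and 3 had sums of 379.6, 218.0 and 211.4 at 6 h, and of 180.9, 204.8 and 290.7 at 24 h. After median-of-ratios scaling the means of the sum were 136.2, 303.04, 211.3 and 380.1.

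Adamts14 followed Adamts2 at a lower level. Its FPKM was 1.63, 1.72 and 2.62 in control, 2.81, 1.79 and 2.64 after 10 min, 2.53, 1.96 and 3.20 after 1 h, 2.74, 2.51 and 2.61 after 6 h, 3.41, 3.93 and 4.54 after 24 h, and 11.3, 10.9 and 10.9 after 72 h. The difference at 72 h was 2.03 ± 0.12 (limma adjusted p = 1.17e-06). That at 24 h (0.74 ± 0.16, adjusted p = 0.0144) was lost without control mouse 1 (adjusted p = 0.0627) or control mouse 2. Adamts3 went the other way, from a mean of 1.89 FPKM in control to 0.871 at 24 h (−0.63 ± 0.14, adjusted p = 0.0172, lost without control mouse 1, where it was 0.0705, or control mouse 3). At 72 h Adamts3 had a mean of 1.39 FPKM and an adjusted p of 0.058.

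**Figure D5:**
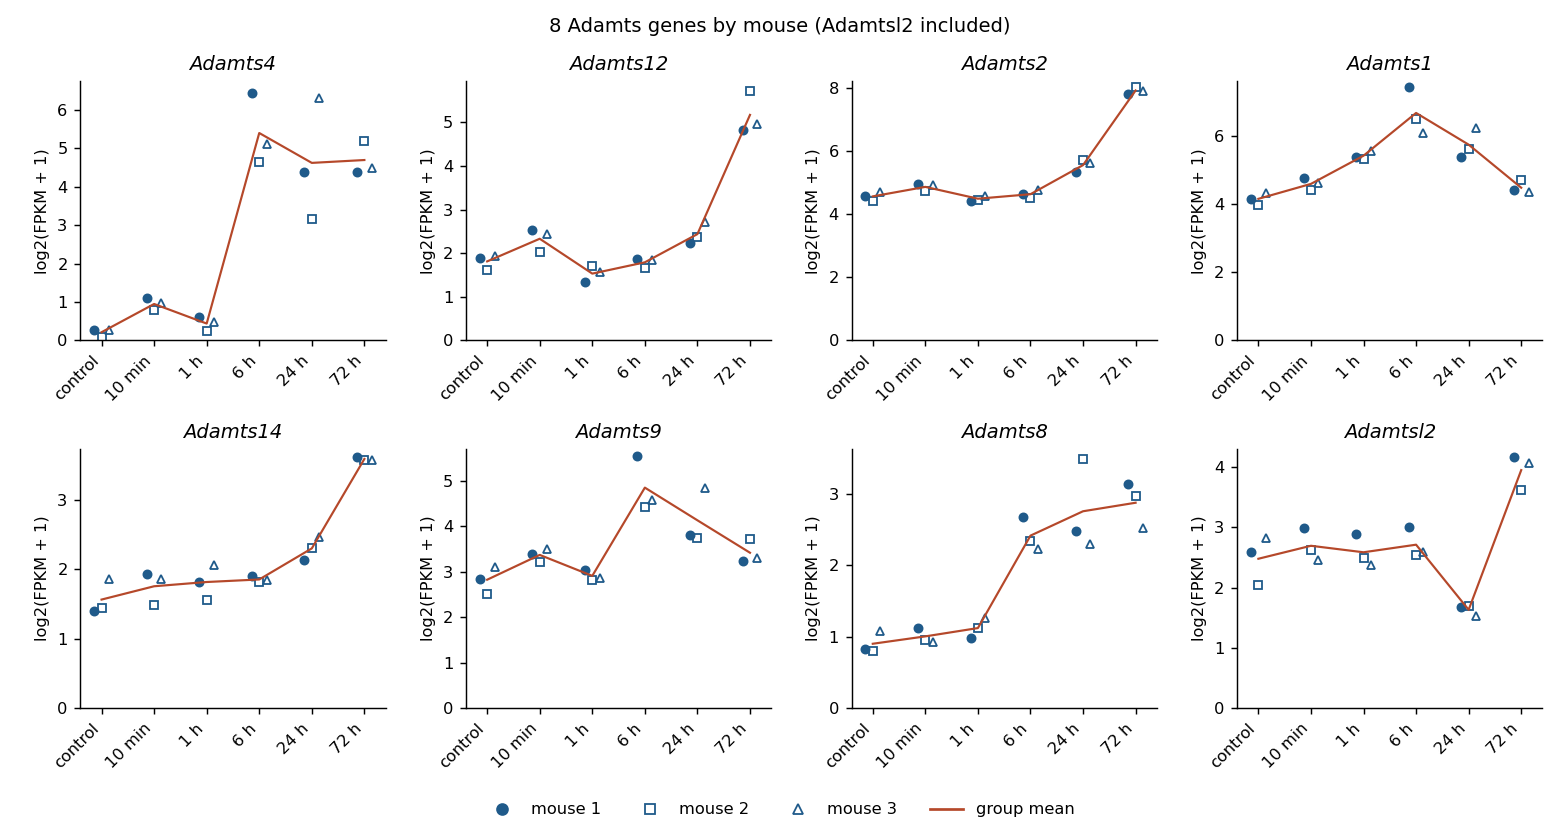
log2(FPKM + 1) (y axis, each panel with its own range from 0) of the 8 Adamts and Adamtsl genes with the largest called difference from control, by group (x axis), with 1 symbol per mouse and a line through the group means of 3 mice. Adamts1, Adamts4 and Adamts9 have their highest means at 6 h, and Adamts2, Adamts8, Adamts12, Adamts14 and Adamtsl2 at 72 h.

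Adamts7 and Adamts12, which both cleave cartilage oligomeric matrix protein, moved apart. Adamts12 had 2.70, 2.07 and 2.80 FPKM in control, 4.75, 3.07 and 4.44 after 10 min, 1.52, 2.25 and 1.94 after 1 h, 2.64, 2.18 and 2.58 after 6 h, 3.69, 4.17 and 5.57 after 24 h, and 27.4, 52.0 and 30.01 after 72 h. The 72 h mice lie well above all others (3.36 ± 0.22, limma adjusted p = 1.63e-06). The 24 h difference (0.63 ± 0.16, adjusted p = 0.0228) was lost without any 1 control mouse, with an adjusted p of up to 0.0849 without control mouse 2, and after quantile normalization. Adamts7 was lower than control in every mouse at 6 h, 24 h and 72 h. Its means were 29.1 FPKM in control, 12.2 at 6 h (−1.22 ± 0.19, adjusted p = 0.00532), 19.0 at 24 h (−0.59 ± 0.13, adjusted p = 0.0165) and 18.1 at 72 h (−0.65 ± 0.09, adjusted p = 0.000184). The 24 h call was lost without control mouse 1 (adjusted p = 0.0704) or control mouse 3.

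Adamts6 and Adamts10 are a pair of related genes tied to fibrillin microfibrils. Adamts10 fell from a mean of 17.8 FPKM in control to 9.79 at 6 h (−0.81 ± 0.15, limma adjusted p = 0.00892) and was 33.5 at 72 h (0.87 ± 0.13, adjusted p = 0.000271). At 24 h it was 10.5 (−0.75 ± 0.21, adjusted p = 0.0293), a call lost without any 1 control mouse and without mouse 1 or 3 at 24 h (adjusted p up to 0.102, without control mouse 1). Adamts6 was called higher at 72 h, with 3.61 FPKM against 1.49 in control (0.89 ± 0.11, adjusted p = 0.000115). Adamts16 was listed at 0 in 12 of the 15 mice up to 24 h and at no more than 0.0876 FPKM in the others, and had 1.34, 1.63 and 1.43 after 72 h. Adamts17, Adamts19 and Adamts20 reached means of 0.699, 1.31 and 0.924 FPKM at 72 h from 0.227, 0.302 and 0.328 in control and were called higher there, but all 3 calls were lost after quantile normalization, where Adamts17 and Adamts20 had differences of −0.07 and −0.02. The call of Adamts17 was also lost after median-of-ratios scaling, without control mouse 1 (adjusted p = 0.0943) or 2 and without mouse 1 or 3 at 72 h.

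The 5 Adamtsl genes, whose products bind fibrillin-rich fibrils, each took a course of its own. Adamtsl2, which is linked to TGF-beta signalling in the matrix, had 5.01, 3.10 and 6.04 FPKM in control, 6.98, 5.16 and 4.52 after 10 min, 6.45, 4.61 and 4.19 after 1 h, 7.08, 4.81 and 5.01 after 6 h, 2.20, 2.24 and 1.88 after 24 h, and 16.99, 11.3 and 15.7 after 72 h. It was below every control mouse at 24 h (−0.85 ± 0.20, limma adjusted p = 0.0186, lost without control mouse 1, where it was 0.0738, or control mouse 3) and above them at 72 h (1.47 ± 0.21, adjusted p = 0.000211). Adamtsl3 was called higher at 72 h alone (2.02 to 5.32 FPKM, 1.04 ± 0.15). Adamtsl5 was called higher at 24 h, with a mean of 54.7 FPKM against 34.6 in control (0.64 ± 0.10, adjusted p = 0.00685), and lower at 72 h, with 28.2 (−0.29 ± 0.09, adjusted p = 0.0148). The latter call was lost without control mouse 1 (adjusted p = 0.0572). Adamtsl4 was lower at 72 h (16.7 to 9.09 FPKM, −0.82 ± 0.11, adjusted p = 0.00012). Adamtsl1 was lower at 6 h (−0.61 ± 0.14, adjusted p = 0.0198), lost without control mouse 2 or 3 (up to 0.0708, without control mouse 3), and at 72 h its difference of 0.12 ± 0.12 (adjusted p = 0.363) became −0.44 after quantile normalization.

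A list of 29 related protease genes was also read, which holds other proteases as well as inhibitors and receptors, and 24 of them were tested. The 6 h group had 10 called higher and 2 lower, the 24 h group 11 and 2, and the 72 h group 20 and 2. The shares of all symbols at these times were 11.6% and 16.8%, 26.2% and 11.4%, and 53.1% and 24.2%. The list had a median log2 difference of 1.73 at 72 h beside 0.29 over all symbols. Plaur, the urokinase receptor, had a mean of 1.81 FPKM in control and 43.4 at 6 h (3.84, limma adjusted p = 0.000747), or 29.4 without mouse 1. At 72 h the cysteine protease Ctss had a mean of 707 FPKM against 12.7, Ctsk 37.5 against 3.25, and Bmp1, the procollagen C-proteinase, 217 against 40.8, all called higher. Reck, a membrane inhibitor of Mmp proteins, had 2.81 FPKM in control and 2.87 FPKM at 72 h (adjusted p = 0.794). Bsg, which induces Mmp genes in other cells, and the proprotein convertase Pcsk6 were the 2 called lower at 72 h.

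Of 15 genes for proteins that these enzymes cleave, 14 were tested. In the 6 h group 5 were called higher and 4 lower, in the 24 h group 9 and 1, and in the 72 h group 14 and 0, beside the same shares of all symbols (11.6% and 16.8%, 26.2% and 11.4%, and 53.1% and 24.2%). The 4 lower ones at 6 h were Col1a1, Col1a2, Col3a1 and Col5a1, the fibrillar collagens of the list. Col1a1 had means of 16.3 FPKM in control, 10.4 at 6 h, 39.1 at 24 h and 949 at 72 h. Vcan, the gene of versican, had 3.86 in control, 10.2 at 6 h (1.11, limma adjusted p = 0.0415), 23.1 at 24 h (14.7 without mouse 3) and 38.9 at 72 h.

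Successive late times were compared directly to see which members still moved. Between 6 h and 24 h, 6 members were called higher and 3 lower at 24 h, beside 12.5% and 1.94% of all symbols. Timp1 (1.94 ± 0.30), Mmp12 (1.59 ± 0.22), Adamts2, Mmp24, Adamts12 and Adamtsl5 were higher, and Timp3 (−1.09 ± 0.13), Adamtsl2 and Timp4 were lower. None of these 9 calls was kept without mouse 2 at 24 h, mouse 2 at 6 h or mouse 3 at 6 h, 4 were kept without mouse 1 at 6 h, and 8 without mouse 3 at 24 h. Over all symbols, 1664 were higher and 258 lower with all mice. In these 5 runs, in the same order, there were 27 and 5, 1 and 1, 1 and 1, 191 and 37, and 873 and 197. The loss of calls was thus not particular to the members. Between 24 h and 72 h, 22 members were called higher and 6 lower, beside 29.7% and 13.5% of all symbols. Mmp12 (2.49 ± 0.20), Mmp23 (2.49 ± 0.18), Mmp14 (2.47 ± 0.31), Adamts12 (2.73 ± 0.25), Adamts2 (2.36 ± 0.13) and Timp2 (2.30 ± 0.17) had the largest increases on the log2(FPKM + 1) scale along with Adamtsl2 (2.32 ± 0.16). Timp4 (−2.76 ± 0.19) had the largest decrease, followed by Adamts1 (−1.26 ± 0.22). Timp1, Adamts4, Mmp3, Mmp8, Mmp9, Mmp19 and Adamts8, all called higher than control at both times, were not called between them (adjusted p between 0.159 and 0.943).

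Leaving out single mice changed the comparisons with control unevenly. At 24 h 12, 15 and 14 of the 25 calls were kept without control mouse 1, 2 and 3, and 23, 24 and 24 without mouse 1, 2 and 3 after 24 h. Over all symbols, 3496 were higher and 1516 lower at 24 h with all mice. Without control mouse 1, 2 and 3 there were 1262 and 366, 1319 and 399, and 1646 and 468. At 6 h 16, 15 and 16 of the 20 calls were kept without each control mouse and at least 19 without each 6 h mouse. At 72 h at least 36 of the 39 calls were kept without any 1 mouse.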

How the data were processed

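The authors trimmed the reads with cutadapt 1.18, aligned them to mm10 with HISAT2 2.1.0 and estimated FPKM with StringTie 1.3.4d; the gene annotation is not given in the sources used here. The deposited values are FPKM, 1 column for each of 18 mice, with no column left unused. The submitters' notes also name Cufflinks and Cuffdiff. In 4 column headers a typing error was resolved from the sample titles. FPKM values carry no read totals, so the absolute depth is unknown. From the steps between values under 0.05 FPKM, depth relative to control mouse 1 was 0.812 to 1.32 over the 18 mice, and 1.25 to 1.32 at 72 h.

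Each comparison was fitted on its own 6 mice with limma 3.58.1 (R 4.3.3, eBayes with a trend) on log2(FPKM + 1), after keeping symbols that reached 1 FPKM in 1 or more mice. Symbols listed at 0 in all 6 mice of a comparison were left out of it. A fold change on this scale understates the change of low genes. P-values were adjusted by Benjamini-Hochberg over all tested symbols and called under 0.05. The code was tested on simulated data. Family sums were compared by exact two-sided permutation tests. Values of every mouse are given for the Timp genes and for the 8 Mmp and 8 Adamts or Adamtsl genes with the largest called difference from control. Mmp2, Mmp15 and the 72 h mice of Adamts16 were added to these after their values were seen. The members, gene lists and tests were chosen with earlier results of these data known. Replicate numbers did not pair the mice. Gene positions and exon overlaps are from GENCODE M21, where all 51 symbols matched, and promoter windows from RefSeq. Alternatives were a pseudocount of 0.1, no filter, median-of-ratios and quantile scaling, 1 fit of all 18 mice, a replicate block, the study's thresholds, and leaving out each mouse. The rescaled family sums and the means of listed genes without single mice were added after the values were seen.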

Additional observations from a re-analysis of the deposited data

Results flagged for a closer look

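Each late time is compared with the same control mice, so a direct comparison of 2 late times tests whether their differences from control differ. By limma with Benjamini-Hochberg adjustment over all tested symbols, 9 such differences of members passed between 6 h and 24 h and 28 between 24 h and 72 h. Between 6 h and 24 h, 13.95% of the members were higher and 6.98% lower, beside 12.5% and 1.94% of all symbols. The share of members that were higher was thus near that of all symbols. Between 24 h and 72 h the shares were 51.2% and 13.95%, beside 29.7% and 13.5%. The values in parentheses are log2 differences, later minus earlier, on log2(FPKM + 1). With 3 mice in each group, no test for single outlying mice was run.

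Between 6 h and 24 h, the members that were higher at the later time were Adamts12 (0.65), Adamts2 (0.92), Adamtsl5 (0.64), Mmp12 (1.59), Mmp24 (0.72) and Timp1 (1.94). Those that were lower were Adamtsl2 (−1.08), Timp3 (−1.09) and Timp4 (−0.88). None of these 9 calls was kept without mouse 2 at 24 h or mouse 2 or 3 at 6 h, and 4 were kept without mouse 1 at 6 h. The calls over all symbols fell in these runs as well, from 1664 higher and 258 lower to at most 191 and 37.

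Between 24 h and 72 h, the members that were higher at the later time were Adamts10 (1.62), Adamts12 (2.73), Adamts14 (1.29), Adamts16 (1.26), Adamts17 (0.56), Adamts19 (0.86), Adamts2 (2.36), Adamts20 (0.70), Adamts5 (0.91), Adamtsl1 (0.65), Adamtsl2 (2.32), Adamtsl3 (0.90), Mmp11 (0.98), Mmp12 (2.49), Mmp13 (0.50), Mmp14 (2.47), Mmp16 (0.83), Mmp17 (0.62), Mmp2 (1.97), Mmp23 (2.49), Mmp27 (1.46) and Timp2 (2.30). Those that were lower were Adamts1 (−1.26), Adamtsl4 (−0.69), Adamtsl5 (−0.93), Mmp24 (−0.63), Timp3 (−1.07) and Timp4 (−2.76). The calls of Adamts17, Adamtsl1, Adamtsl4 and Mmp13 were each lost without at least 1 of the 6 mice, with adjusted p of up to 0.0769, 0.0719, 0.0561 and 0.0601.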

How the results depend on the processing

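With the study's thresholds (p under 0.05 with no adjustment, and group means differing more than 2-fold) 3 members were higher at 10 min and 3 at 1 h, and 4, 2 and 2 were lower at 6 h, 24 h and 72 h, in place of 1, 1, 8, 8 and 6. At 72 h against 24 h 4 in place of 6 were lower under that rule. In one fit of all 18 mice no member (0) was higher at 10 min, and between 6 h and 24 h 15 rose and 5 fell, in place of 6 and 3. Over all symbols, that fit had 3 higher at 10 min in place of 33. Between 6 h and 24 h it had 4848 higher and 1002 lower, in place of 1664 and 258. No member was higher at 10 min without the filter or with a pseudocount of 0.1 (0 each), where 1 and 32 of all symbols were. After quantile normalization 22 in place of 33 were higher at 72 h, 11 in place of 8 were lower at 24 h, and 4 were higher at 24 h than at 6 h, and median-of-ratios scaling gave 11 and 4 for the last pair. Of all symbols, 371 and 403 were higher at 24 h than at 6 h under these scalings, in place of 1664. Leaving out 1 mouse gave 0 to 1 higher at 10 min, 1 to 1 at 1 h, 11 to 12 at 6 h, 11 to 18 at 24 h and 31 to 33 at 72 h, and 4 to 10, 1 to 10 and 5 to 7 lower at 6 h, 24 h and 72 h. It gave 0 to 7 higher and 0 to 3 lower between 6 h and 24 h, and 20 to 27 higher and 5 to 6 lower between 24 h and 72 h. No member was lower at 10 min or 1 h under any alternative run.

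Replicate numbers gave no pairing: same-numbered mice had correlations of their deviations of −0.271, 0.415 and −0.327 between 6 h and 24 h. With the replicate block all 9 calls between 6 h and 24 h were lost (0 higher, 0 lower), and the members higher than control numbered 12, 17 and 32 at the 3 late times, with 7, 7 and 6 lower. Over all symbols, that block left 1 higher and 0 lower between 6 h and 24 h. Of 3609 alternative values of single members, 3394 kept their side of the threshold, 155 lost the call, 55 gained one and 5 changed sign with a call before or after. A further 139 changed sign with no call on either side and are counted among the first. The 5 were log2 differences at 72 h after quantile normalization: Adamts1 −0.0075, Adamts17 −0.0708, Adamts20 −0.0217, Mmp25 −0.0156 and Adamtsl1 −0.4409, the last with a limma adjusted p of 0.0049. That scaling moved the median of all symbols at 72 h from 0.29 to −0.12, and the cause was not tested. Median-of-ratios scaling, applied to the summed inhibitors after the values were seen, moved their difference from control from 192.6 to 248.1 FPKM at 6 h, from −59.2 to −96.8 at 24 h and from 0.340 to −83.2 at 72 h. The depth behind each FPKM is unknown, so values near 0 have no detection limit here.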
